A study of Mus musculus with 9 samples.

Results

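The 10 genes described here encode the core machinery by which mitochondria fuse, divide and degrade proteins at the inner membrane and in the matrix. They are Mfn1, Mfn2 and Opa1 for fusion, Dnm1l, Fis1 and Mff for fission, and the proteases Yme1l1, Afg3l2, Lonp1 and Clpp. They were chosen by name for their function, with earlier results of these data known. All 10 were found by that name among the 29915 genes of the count table and passed the filter on low counts. The RNA came from mouse embryonic fibroblasts (MEFs), connective-tissue cells grown from embryos, of 1 mutator line and 1 wild-type (WT) line. Both lines were left untreated, seeded at 300000 cells per well of 6-well plates and harvested 48 h later. The comparison held 5 mutator libraries and 4 WT libraries, which are wells of a line, that is, technical replicates. The genotype is labelled just mutator or wild type. In mouse genetics that name usually stands for animals with a proofreading-deficient mitochondrial DNA polymerase, whose gene is Polg, but the allele is not stated and cannot be read from gene counts. With 1 line per genotype, effects of the genotype and of the line cannot be told apart, and every p-value below measures the spread between wells.

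Mitochondria form a network that is remodelled by fusion and fission. The outer-membrane GTPases mitofusin 1 and mitofusin 2 join outer membranes, and OPA1 joins inner membranes and shapes cristae. The dynamin-like GTPase DRP1, the product of Dnm1l, is drawn from the cytosol by receptors such as MFF and constricts the organelle. Inner-membrane proteases set the balance, since YME1L1 and the stress-activated OMA1 cut OPA1 into its long and short forms. AFG3L2 faces the matrix, where the soluble proteases LONP1 and CLPXP clear misfolded proteins. A count per gene does not separate splice forms, and it does not see the cutting of OPA1, which happens to the protein.

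The libraries held 32045662 to 49511365 counts in mutator and 26341230 to 36238653 counts in WT, and each member had between 959 and 8513 counts in every library. Levels are CPM, counts relative to the library total, after TMM scaling, which adjusts library sizes for composition. Mutator and WT libraries lay at opposite ends of the first principal component (96.3% of variance). Of 13345 genes tested, 79.9% passed an adjusted p of 0.05 in edgeR's quasi-likelihood test, 40.7% higher and 39.2% lower in mutator. The summed level of 12 fibroblast markers was 16239 to 17310 CPM in mutator and 8812 to 9226 CPM in WT, led by Fn1 in both lines. Of the 12, 8 were at 1 CPM or more in both lines. Summed markers of endothelium (0.293 to 0.531 CPM in mutator, 0.685 to 1.20 CPM in WT), muscle (0.159 to 0.293 CPM in mutator, 0.228 to 0.361 CPM in WT) and blood (3.69 to 4.54 CPM in mutator, 2.16 to 2.66 CPM in WT) were low. Tie1, Emcn, Myod1, Myf5, Adgre1 and Cd3e had no counts in any library. Epithelial markers summed to 1.12 to 1.93 CPM in mutator and 100.4 to 109 CPM in WT, led by the keratin Krt18. Neural and glial markers summed to 21.4 to 23.5 CPM in mutator and 63.6 to 65.4 CPM in WT, led by Map2, with Sox10 at 0. The part of these differences in the results below was not tested. In RNA from whole wells, fewer cells of a type and less RNA per cell cannot be told apart. Polg averaged 102 ± 1.89 CPM in mutator (SD, n = 5) and 95.9 ± 2.49 CPM in WT (SD, n = 4), and the sign of its log2 fold change of 0.09 turned with the GC and length trend removed (-0.042, adjusted p = 0.144). With the median of its chromosome removed as well, Polg passed as lower (-0.075, edgeR adjusted p = 0.0135). Relative to that median alone it did not pass (0.053, edgeR adjusted p = 0.0678).

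All 10 members passed the test, 8 lower and 2 higher in mutator. The share of calls has to be read against the 79.9% of all genes that passed, and so is not a feature of the members. The members had a median log2 fold change of -0.17, against 0.01 over all genes tested. In absolute size the median was 0.17 for the members and 0.35 for all genes. The libraries of the lines did not overlap for 8 of the 10 members, against 71.9% of all genes, and Opa1 and Fis1 overlapped. Mfn1 was the one member changed by at least 1.5-fold, which 31.8% of all genes were with an adjusted p under 0.05.

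The RefSeq promoter sequences of Mfn1, with the lowest fold change, and Yme1l1, with the highest, are shown to set side by side the start regions of the members that moved farthest each way. Each run is the 250 bases before the transcript start used in the RefSeq promoter table on GRCm38.p6, 5′ to 3′, which lies downstream of the outermost gene start for both genes. Mfn1 lies at chr3:32529232-32529481 and Yme1l1 at chr2:23156255-23156504, both on the plus strand.
Mfn1: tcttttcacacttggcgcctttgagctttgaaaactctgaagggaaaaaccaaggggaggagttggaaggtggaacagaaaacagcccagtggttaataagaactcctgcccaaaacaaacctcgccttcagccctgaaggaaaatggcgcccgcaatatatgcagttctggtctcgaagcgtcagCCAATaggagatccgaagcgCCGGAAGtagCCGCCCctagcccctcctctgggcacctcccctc
Yme1l1: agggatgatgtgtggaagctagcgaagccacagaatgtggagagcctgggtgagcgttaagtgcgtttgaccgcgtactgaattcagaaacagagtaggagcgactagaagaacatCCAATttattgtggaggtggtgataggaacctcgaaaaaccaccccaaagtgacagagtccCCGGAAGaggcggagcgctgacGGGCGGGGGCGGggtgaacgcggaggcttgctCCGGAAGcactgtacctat
Capitals mark matches, on either strand, to a CCAAT box (CCAAT), a GC box (GGGCGG) and an ETS motif (CCGGAAG). The Mfn1 window held 1 match of each, and the Yme1l1 window held 1 CCAAT box, 2 GC boxes that adjoin and 2 ETS motifs. Of 27025 promoter windows of that length, 34.5% held the CCAAT letters, 32.9% the GC box and 7.05% the ETS motif. Neither window held the letters of the palindromic NRF1 motif (0.781% of windows), the YY1 motif AAGATGGC (1.59%), the composite site TGATGNAA (3.53%), the cyclic AMP response element TGACGTCA (1.62%) or the E-box CACGTG (6.05%). The matches are letters found in these windows and say nothing of factors bound there. The kinds of motif matched in the 2 windows were the same. On the scale of all genes Mfn1 was lower and Yme1l1 higher in mutator. Relative to their chromosome medians both were lower (-0.26 and -0.17). A link between these motifs and the changes was not tested.

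Among the fusion genes, Mfn1 RNA was 1.99-fold lower in mutator, Mfn2 was 1.28-fold lower, and Opa1 differed by 1.05-fold. Mfn1 (GRCm38 chromosome 3, 32529443 to 32579225, 18 exons in its longest coding transcript) encodes the mitofusin with the stronger tethering activity. It had 64.0, 63.6, 63.9, 63.4 and 60.6 CPM in mutator replicates 1 to 5, against 126, 129, 119.9 and 126 CPM in WT replicates 1 to 4. Every mutator library lay far below every WT library, and the spread within a line was small (coefficient of variation 2.29% in mutator and 3.22% in WT). The log2 fold change was -0.99 ± 0.028 (SE, edgeR adjusted p = 6.36e-16), and 18.1% of all genes tested had a larger absolute change. Mfn2 (chromosome 4, 147873586 to 147904909, 20 exons) encodes the other mitofusin, which also tethers mitochondria to the endoplasmic reticulum. Its values were 121, 123, 122, 125 and 126 CPM in mutator, against 159.9, 155, 161 and 154 CPM in WT. The lines did not overlap, and the log2 fold change was -0.35 ± 0.023 (SE, edgeR adjusted p = 1.32e-10). Relative to the median of chromosome 4 (-0.36) the call was lost and the sign turned (0.0074, adjusted p = 0.779), and with the GC and length trend removed as well Mfn2 was lower (-0.074, adjusted p = 0.0077). Opa1 (chromosome 16, 29579281 to 29663127, 29 exons) had 127, 126, 129, 120.3 and 127 CPM in mutator, against 133, 138, 130.1 and 126 CPM in WT. The lines overlapped, since WT replicate 4 lay within the mutator range. Its log2 fold change of -0.068 ± 0.028 (SE, approximate 95% interval -0.12 to -0.013, edgeR adjusted p = 0.0351) rested on single libraries. The adjusted p was 0.0554 without mutator replicate 2, 0.0923 without mutator replicate 4, 0.0899 without WT replicate 1 and 0.102 without WT replicate 2. It did not pass under upper quartile scaling (-0.023, adjusted p = 0.460), and with the trend over GC content and transcript length removed the sign turned (0.018, adjusted p = 0.560).

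**Figure D1:**
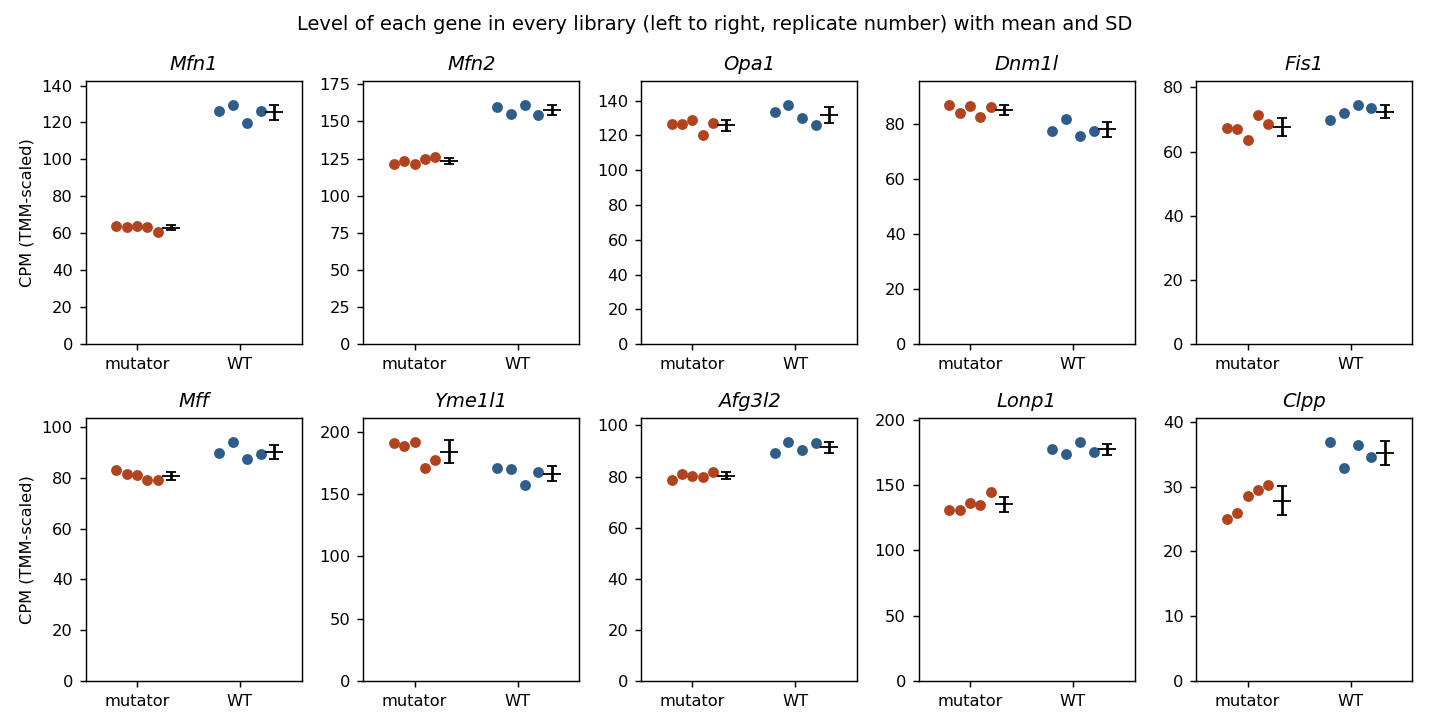
CPM (TMM-scaled, axes from 0) of the 10 genes in each of 5 mutator and 4 WT libraries, with each line's mean and SD beside its points. Mfn1 sits at 60.6 to 64.0 CPM in mutator and at 119.9 to 129 CPM in WT, while the points of Opa1 and Fis1 overlap between the lines.

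On the scale of all genes the fission genes differed by 1.07-fold to 1.12-fold between the lines. Dnm1l (chromosome 16, 16312228 to 16359038) was 1.09-fold higher in mutator, with 86.8, 83.8, 86.3, 82.4 and 86.0 CPM in mutator, against 77.5, 81.7, 75.4 and 77.4 CPM in WT. The lowest mutator library lay just above the highest WT library. The log2 fold change was 0.12 ± 0.029 (SE, edgeR adjusted p = 0.000892). With the GC and length trend removed it was 0.27 (edgeR adjusted p = 1.09e-07). Mff (chromosome 1, 82724890 to 82752390), the main DRP1 receptor of the outer membrane, was 1.12-fold lower. It had 83.0, 81.5, 81.0, 79.2 and 79.0 CPM in mutator, against 89.9, 94.2, 87.6 and 89.2 CPM in WT. The lines did not overlap, and the log2 fold change was -0.16 ± 0.028 (SE, adjusted p = 5.03e-05); with the GC and length trend removed it was -0.047 (adjusted p = 0.131). Fis1 (chromosome 5, 136953275 to 136966234, 5 exons), a tail-anchored outer-membrane protein, was 1.07-fold lower. Its values were 67.4, 67.1, 63.7, 71.5 and 68.6 CPM in mutator, against 69.7, 71.9, 74.5 and 73.6 CPM in WT. Mutator replicate 4 lay within the WT range. The log2 fold change of -0.096 ± 0.034 (SE, edgeR adjusted p = 0.0145) did not pass without mutator replicate 3 (adjusted p = 0.0506) or under upper quartile scaling (-0.052, adjusted p = 0.163). In GENCODE, exons of an antisense gene overlap 5.36% of the exon length of Dnm1l, and exons of C430014B12Rik, on the other strand, overlap 8.94% of that of Mff. Neither has a row in the table, and with the strand setting of the counting not given their reads could not be told apart.

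Of the inner-membrane proteases, Yme1l1 was 1.11-fold higher in mutator on the scale of all genes and Afg3l2 was 1.14-fold lower, and the matrix proteases Lonp1 and Clpp were 1.31-fold and 1.27-fold lower. Yme1l1 (chromosome 2, 23155442 to 23199260), the protease whose active site faces the intermembrane space, had 191, 189, 192, 171 and 178 CPM in mutator, against 171, 169.9, 157 and 167 CPM in WT. The lines did not overlap by a small margin, with mutator replicate 4 at 170.9 CPM and WT replicate 1 at 170.7 CPM. Its log2 fold change was 0.15 ± 0.035 (SE, edgeR adjusted p = 0.000963), and relative to the median of its chromosome it was -0.17 (adjusted p = 0.000296), so that its direction depended on the scale. Afg3l2 (chromosome 18, 67404764 to 67449192) had 78.4, 81.1, 80.2, 79.8 and 81.9 CPM in mutator, against 89.2, 93.6, 90.2 and 93.0 CPM in WT. All mutator libraries lay below all WT libraries, and the log2 fold change was -0.19 ± 0.026 (SE, edgeR adjusted p = 3.36e-06). Lonp1 (chromosome 17, 56614297 to 56626903), the matrix protease that also degrades the mitochondrial DNA packaging factor TFAM, had 131, 131, 136, 134 and 145 CPM in mutator, against 177, 174, 183 and 176 CPM in WT. The lines were far apart, and the log2 fold change was -0.39 ± 0.029 (SE, edgeR adjusted p = 7.64e-10). With the GC and length trend removed it was -0.58 (edgeR adjusted p = 3.39e-12). Clpp (chromosome 17, 56990264 to 56996371), the proteolytic barrel of the CLPXP complex, had 25.0, 25.9, 28.5, 29.6 and 30.3 CPM in mutator, against 37.0, 32.9, 36.5 and 34.6 CPM in WT. The lines did not overlap, but Clpp was the member with the widest spread between wells, and its mutator level rose with the replicate number. Its coefficient of variation was 8.26% in mutator and 5.33% in WT, against medians of 2.99% and 3.05% over the 5082 genes with a mean level in the range of the members. The log2 fold change was -0.34 ± 0.054 (SE, edgeR adjusted p = 1.42e-05). An order by replicate number was not particular to Clpp, since the mutator level of Mff fell at each step. On the second principal component (1.12% of variance) mutator replicates 1 to 5 stood at 8.13, 4.56, 0.22, -7.97 and -4.61.

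Several chromosomes differed between the lines as blocks, so the members were also read against the genes around them. Chromosome 3, which carries Mfn1, had a median log2 fold change of -0.73 over 604 tested genes, and chromosome 2, which carries Yme1l1, had 0.31. Within 1 Mb of the start of Mfn1, 8 of 9 tested neighbours were lower and 1 was higher in mutator, with a median of -0.74. The nearest on either side, Zfp639 and Gnb4, were at -0.68 and -0.47, Mrpl47 was at -1.04, and the exception Usp13 was at 1.75. Mfn1 was lower than 7 of the 9 and stayed lower relative to its chromosome median (-0.26, adjusted p = 1.76e-07). Around Mfn2, 19 of 22 neighbours were lower and 2 higher, with a median of -0.48. Lonp1 and Clpp start 376 kb apart, so that their windows overlap, and 30 of 43 and 26 of 38 neighbours were lower, with medians of -0.44 and -0.39. Relative to the median of chromosome 17, Lonp1 was at -0.13 (adjusted p = 0.000524) and Clpp at -0.082 (adjusted p = 0.172), and with both corrections Clpp was lower (-0.18, adjusted p = 0.0057). The neighbours of Fis1 went the other way, with 24 of 38 higher, 7 lower and a median of 0.30 beside -0.096 for Fis1 itself. Around Mff, 3 of 5 neighbours were higher and 1 was lower (median 0.28), and around Yme1l1 5 of 6 were higher and none was lower (median 0.31). Afg3l2 had 5 higher and 5 lower among 16 neighbours, Opa1 had 1 higher and 4 lower among 6, and Dnm1l had 7 higher and 9 lower among 22. The medians of their neighbours were -0.051, -0.29 and 0.062. On the chromosome scale Afg3l2 had the lowest value of the 10 members (-0.30, adjusted p = 7.74e-09) and Dnm1l the highest (0.16, adjusted p = 9.57e-05). On that scale 6 members were lower, 1 was higher and Mfn2, Opa1 and Clpp did not pass. Against the median of their neighbours, Mff (-0.44) and Fis1 (-0.40) were the lowest members, and Afg3l2 was at -0.14.

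**Figure D2:**
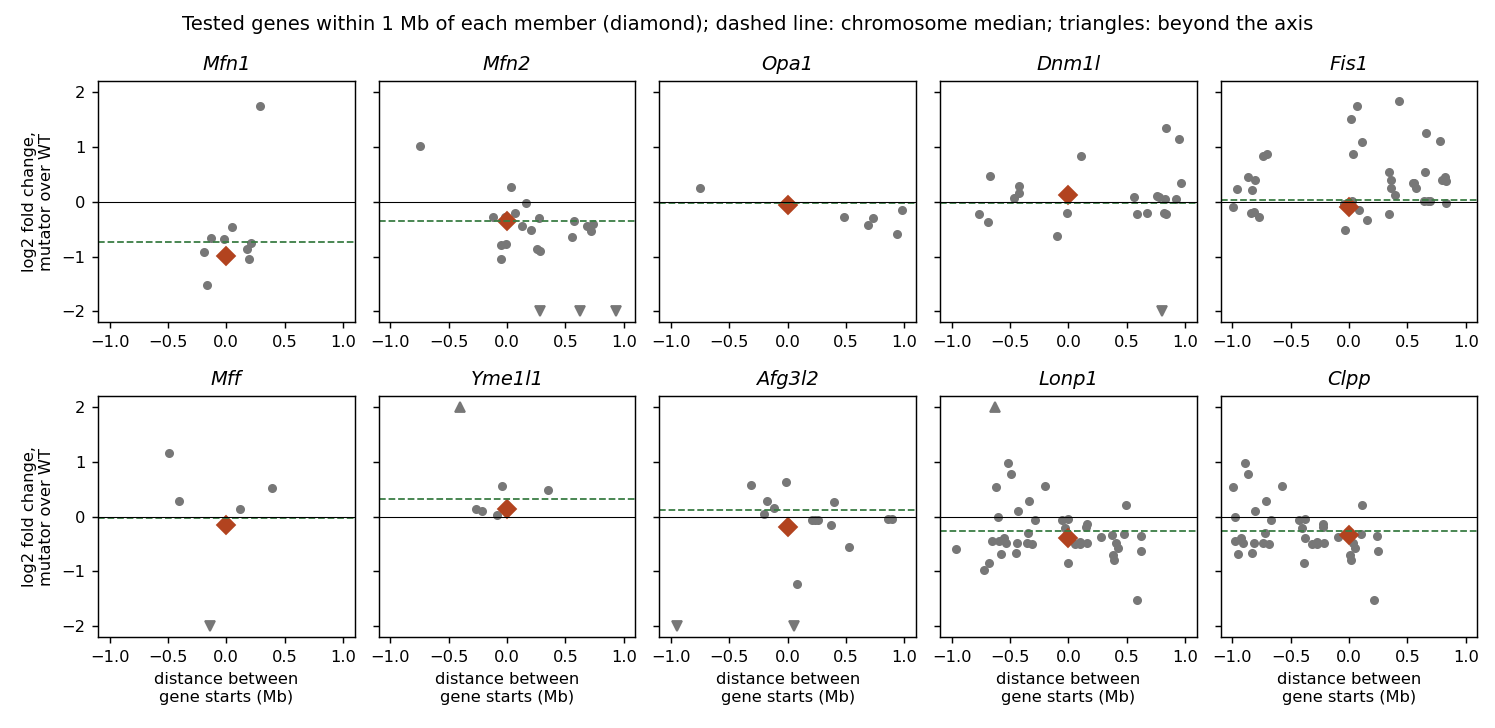
Log2 fold change, mutator over WT, of tested genes (grey) by distance in Mb between gene starts, with the member as a diamond at 0, the chromosome median as a dashed line, and triangles for genes beyond the axis. Mfn1 lies below most of its neighbours (median -0.74), and Mfn2, Lonp1 and Clpp lie among theirs.

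**Figure D3:**
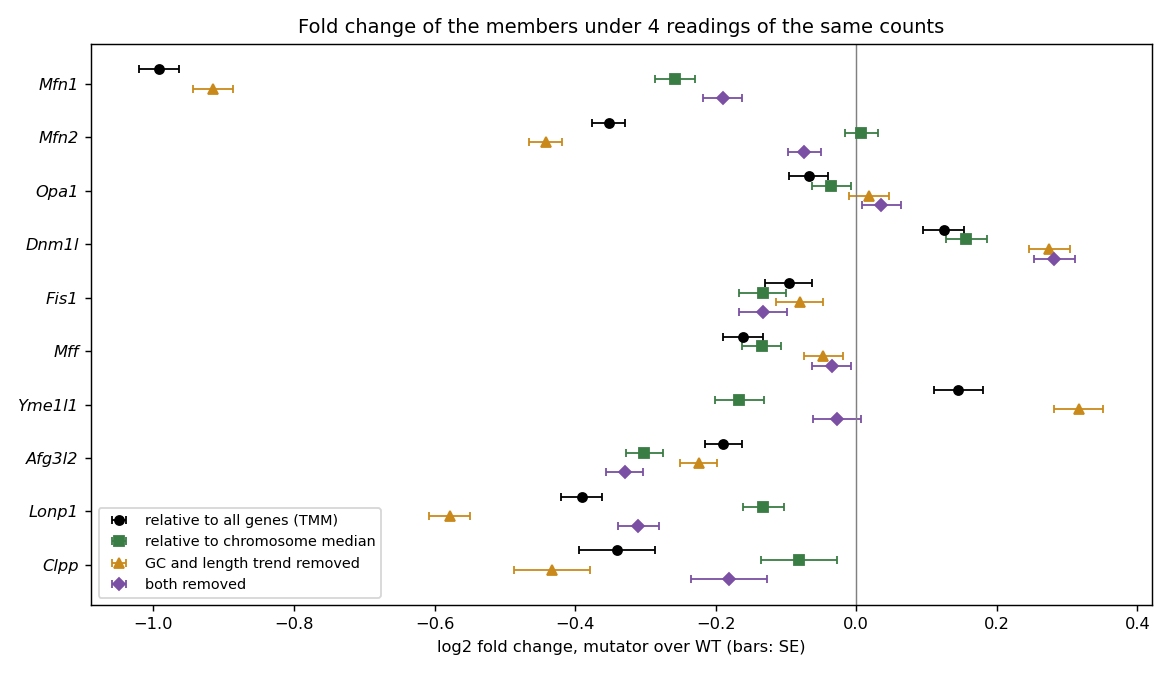
Log2 fold change (mutator over WT, bars SE) of each member relative to all genes, relative to its chromosome median, after removal of the GC and length trend, and after both. Mfn1 is at -0.99 relative to all genes and at -0.19 after both and stays lower, Dnm1l stays higher, and Mfn2, Opa1 and Yme1l1 change sign under at least 1 reading. After both, Afg3l2 (-0.33) and Lonp1 (-0.31) lie below Mfn1, and Dnm1l is at 0.28.

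Ratios of genes that act together were taken within each library, where library size and scaling cancel; they are not per length, so only the lines are compared. They were compared with a two-sided exact permutation test over the 5 mutator and 4 WT libraries, whose smallest possible p is 0.0159, and adjusted over 9 pairs. With any 1 WT library left out the smallest possible p is 0.0357, and the adjusted p of the 6 pairs that passed was then 0.0536, with directions unchanged. The Mfn1/Mfn2 ratio of counts was 0.511 in mutator and 0.796 in WT. On the log2 scale it was -0.97 ± 0.056 in mutator (SD, n = 5) and -0.33 ± 0.073 in WT (SD, n = 4), a difference of -0.64 (exact permutation p = 0.0159, adjusted p = 0.0238). The chromosome medians of these genes differ by -0.37, and their GC and length trends by -0.17. With both removed, Mfn1 was at -0.19 and Mfn2 at -0.074. Opa1/Mfn2 was 1.02 in mutator and 0.836 in WT, and Dnm1l/Opa1, a fission gene over a fusion gene of the same chromosome, was 0.676 in mutator and 0.592 in WT. Both were higher in all 5 mutator libraries than in any WT library, with log2 differences of 0.29 and 0.19 (exact permutation p = 0.0159 and adjusted p = 0.0238 for either). The chromosome medians differ by 0.33 for Opa1/Mfn2, more than the difference of 0.29 in that ratio, and by 0 for Dnm1l/Opa1. The GC and length trends differ by -0.18 for Opa1/Mfn2 and by -0.064 for Dnm1l/Opa1. Fis1/Mff overlapped between the lines, at 0.838 in mutator and 0.803 in WT (exact permutation p = 0.286, adjusted p = 0.321).

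Among the proteases, Yme1l1/Oma1, the pair that cuts OPA1, was 14.0 in mutator and 9.34 in WT. The log2 ratio was 3.81 ± 0.032 in mutator (SD, n = 5) and 3.22 ± 0.067 in WT (SD, n = 4), a difference of 0.58 (exact permutation p = 0.0159, adjusted p = 0.0238). Yme1l1 and Oma1 lie on chromosomes 2 and 4, whose medians differ by 0.67, and the GC and length trends of the genes differ by -0.095. Oma1 itself had 13.7, 13.5, 13.2, 12.4 and 12.8 CPM in mutator, against 17.3, 19.2, 17.0 and 17.7 CPM in WT (log2 fold change -0.44 ± 0.049, SE), and it did not pass on the chromosome scale (-0.0797, adjusted p = 0.147). Afg3l2/Spg7, partners in the hetero-oligomeric matrix-facing protease, was 0.870 in mutator and 1.13 in WT. That log2 difference was -0.38, where the chromosome medians differ by 0.07 (exact permutation p = 0.0159, adjusted p = 0.0238). The GC and length trends of Afg3l2 and Spg7 differ by -0.12. Spg7 was at 92.4 ± 3.03 CPM in mutator (SD, n = 5) and 80.9 ± 2.88 CPM in WT (SD, n = 4), and its log2 fold change of 0.19 ± 0.032 (SE) was 0.034 with the GC and length trend removed (adjusted p = 0.328). Clpp/Clpx, the protease over its unfoldase, was 0.516 in mutator and 0.632 in WT, a log2 difference of -0.29 (exact permutation p = 0.0159, adjusted p = 0.0238). The chromosome medians of this pair differ by -0.66, and the GC and length trends by 0.22. Clpx averaged 53.9 ± 2.84 CPM in mutator (SD, n = 5) and 55.7 ± 0.628 CPM in WT (SD, n = 4), and did not pass (edgeR adjusted p = 0.250), but relative to its chromosome median it was lower (-0.45, adjusted p = 4.14e-09). Lonp1/Clpp was 4.87 in mutator and 5.04 in WT and overlapped (exact permutation p = 0.270, adjusted p = 0.321). Mief1/Mief2, receptors for DRP1 that the table lists as Smcr7l and Smcr7, was 3.72 in mutator and 3.77 in WT (exact permutation p = 0.730, adjusted p = 0.730).

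**Figure D4:**
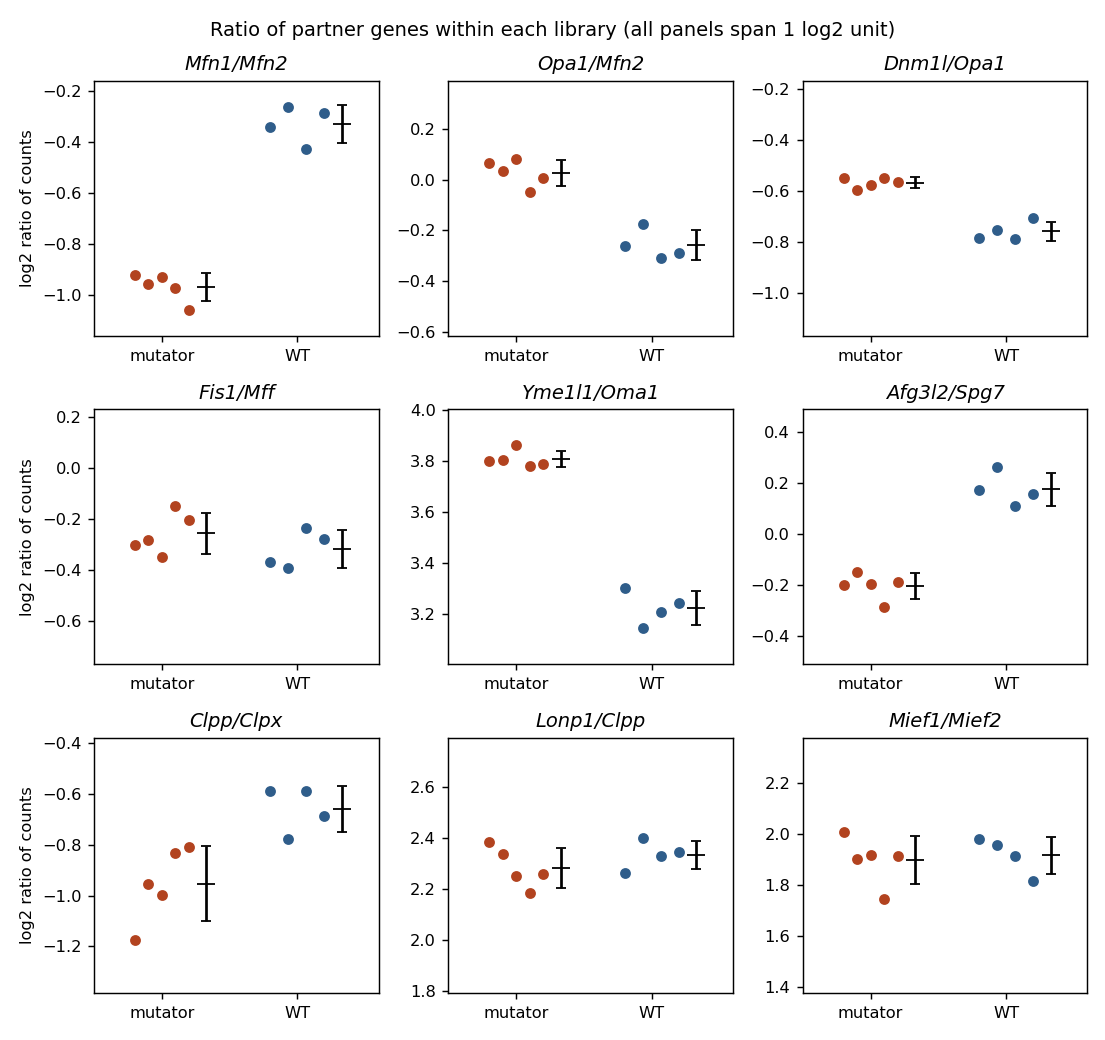
Log2 ratio of the counts of 2 partner genes in each library, mutator left and WT right, with mean and SD; each panel spans 1 log2 unit. The lines separate for 6 of the 9 pairs and overlap for Fis1/Mff, Lonp1/Clpp and Mief1/Mief2.

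Levels of different genes were compared per kilobase of merged coding-transcript exons. In mutator the order ran from Fis1 (61.4 ± 2.54 CPM per kb, SD, n = 5) over Lonp1 (45.9 CPM per kb, library range 44.3 to 49.1) and Yme1l1 (39.1 ± 1.99 CPM per kb) to Mff (37.0 ± 0.780 CPM per kb) and Clpp (28.3 ± 2.34 CPM per kb). Below them came Afg3l2 (26.0 ± 0.430 CPM per kb), Mfn2 (23.9 ± 0.401 CPM per kb), Opa1 (19.7 ± 0.499 CPM per kb), Dnm1l (18.8 ± 0.415 CPM per kb) and Mfn1 (11.3 ± 0.260 CPM per kb). The libraries of Yme1l1 and Mff, of Clpp and Afg3l2, and of Opa1 and Dnm1l overlapped in mutator. In WT, Fis1 (65.7 ± 1.91 CPM per kb, SD, n = 4) and Lonp1 (60.1 ± 1.42 CPM per kb) stood above Mff (41.4 ± 1.30 CPM per kb). Clpp (35.8 ± 1.91 CPM per kb) and Yme1l1 (35.3 ± 1.31 CPM per kb) overlapped there, as did Mfn2 (30.5 ± 0.668 CPM per kb) and Afg3l2 (29.6 ± 0.693 CPM per kb). Mfn1 stood eighth in WT at 22.6 ± 0.726 CPM per kb (SD, n = 4), above Opa1 (20.6 ± 0.753 CPM per kb) and Dnm1l (17.2 ± 0.591 CPM per kb). Mfn1 was the lowest of the 10 in mutator and Dnm1l the lowest in WT, also when the longest coding transcript was used as the length. With all annotated exons merged, retained introns included, Afg3l2 was the lowest in mutator and Mff the lowest in WT. On that length the mutator levels were 8.28 CPM per kb for Mff, 8.13 CPM per kb for Afg3l2, 39.5 CPM per kb for Fis1, 23.0 CPM per kb for Yme1l1 and 31.0 CPM per kb for Lonp1, so that the order between genes depends on which exons are counted.

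Genes that work beside the members moved both ways. Over 8 lists with 77 tested genes, 29 were higher and 35 lower in mutator (83.1% called, near the 79.9% of all genes), with a median log2 fold change of -0.01. The counts of each list below are to be read beside the 40.7% of all genes that were higher and the 39.2% that were lower. Of 7 fusion accessory genes tested, 5 were higher and 2 lower, and relative to chromosome medians 3 were higher. Msto1 was 1.83-fold lower (51.0 ± 1.62 CPM in mutator, 93.1 ± 2.46 CPM in WT) and Stoml2, a cardiolipin-binding scaffold protein, 1.40-fold lower, while Miga1, listed as Fam73a, was 1.63-fold higher. Msto1 and Miga1 lie on the same chromosome as Mfn1, so that genes of opposite direction were found there. The median of that chromosome was -0.73, beside log2 fold changes of -0.87 for Msto1 and 0.70 for Miga1. Stoml2 was at -0.49 beside a median of -0.36 for its chromosome. One entry of that list, Fam136a, has no fusion role known here. Of 14 fission receptors and modulators, 4 were higher and 5 lower, and with both corrections 3 were higher and 7 lower. Spire1, an actin nucleator with a mitochondrial form, was 2.34-fold lower (67.6 ± 1.13 CPM in mutator, 158 ± 2.35 CPM in WT) and Mtfr1 1.78-fold lower, although the sign of Mtfr1 turned with chromosome median and GC and length trend both removed (0.0088, adjusted p = 0.785). Spire1 lies within 1 Mb of Afg3l2. Mtfp1, a fission protein of the inner membrane, was 2.11-fold higher at a low level (2.72 ± 0.343 CPM in mutator, 1.27 ± 0.182 CPM in WT). Mief1 and Mief2 did not pass on the scale of all genes (edgeR adjusted p = 0.478 and 0.967), but both passed as lower with both corrections (-0.095 and -0.23, adjusted p = 0.0080 and 0.0027). Mief1 also passed relative to its chromosome median (-0.079, adjusted p = 0.023), and Mief2 with the GC and length trend removed (-0.18, adjusted p = 0.015).

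Of 12 inner-membrane proteases and scaffolds, 7 were lower and 3 higher, with a median of -0.21, where 39.2% of all genes were lower. With the GC and length trend removed 6 were lower and the median was -0.032, and with both corrections 3 were lower, 2 higher and 7 did not pass. Phb1, listed as Phb and encoding a prohibitin that forms rings around the matrix-facing protease, was 1.23-fold lower (136 ± 4.69 CPM in mutator, 168 ± 9.78 CPM in WT), Ghitm was 1.25-fold lower (with both corrections 0.040, adjusted p = 0.102) and the rhomboid protease Parl 1.17-fold lower (with both corrections -0.065, adjusted p = 0.083). Of 8 matrix proteases and peptidases, 4 were lower and 3 higher, and relative to chromosome medians 6 were lower and 2 higher. Pitrm1, which degrades presequence peptides, was 1.36-fold higher, Pmpcb, a subunit of the presequence-cleaving peptidase, was 1.18-fold lower and Metap1d was higher (20.5 ± 0.999 CPM in mutator, 17.8 ± 0.844 CPM in WT). Metap1d was lower relative to its chromosome median (-0.12, adjusted p = 0.0335). Of 9 matrix chaperones, 5 were higher and 3 lower, and relative to chromosome medians 3 of 7 were higher. With the GC and length trend removed 6 of 9 were higher and 2 lower, and with both corrections 5 of 7 were higher and 2 lower. Hspd1 and Hspe1, the chaperonin HSP60 and its lid HSP10, were lower together, 1.23-fold and 1.30-fold, and Trap1 was 1.39-fold higher.

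Of 12 genes for the cristae junction complex and its partners, 5 were higher and 5 lower. Micos13, which lies within 1 Mb of Lonp1 and Clpp, was 1.80-fold lower, Micos10 1.54-fold lower and Mtx1 1.51-fold lower, the last with a reversed sign relative to its chromosome median (0.14, adjusted p = 0.00556). Of 9 genes for substrates of these proteases and linked proteins, 6 were lower and 2 higher, where 39.2% of all genes were lower and 40.7% higher. Pink1, the mitophagy kinase that PARL cleaves, was 1.87-fold lower (13.1 ± 0.385 CPM in mutator, 24.5 ± 1.03 CPM in WT), Tfam was 1.61-fold lower, and Timm17a, an import subunit degraded by YME1L1, was 1.29-fold lower. Of 6 transport adaptors, 3 were lower and 2 higher. The kinesin adaptor Trak1 was 1.75-fold higher (76.5 ± 1.85 CPM in mutator, 43.8 ± 2.11 CPM in WT), Armcx3 was 1.25-fold higher and Rhot2, a GTPase that anchors motors to the outer membrane, was 1.23-fold lower. On the chromosome scale Rhot2 did not pass (-0.044, adjusted p = 0.267).

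**Figure D5:**
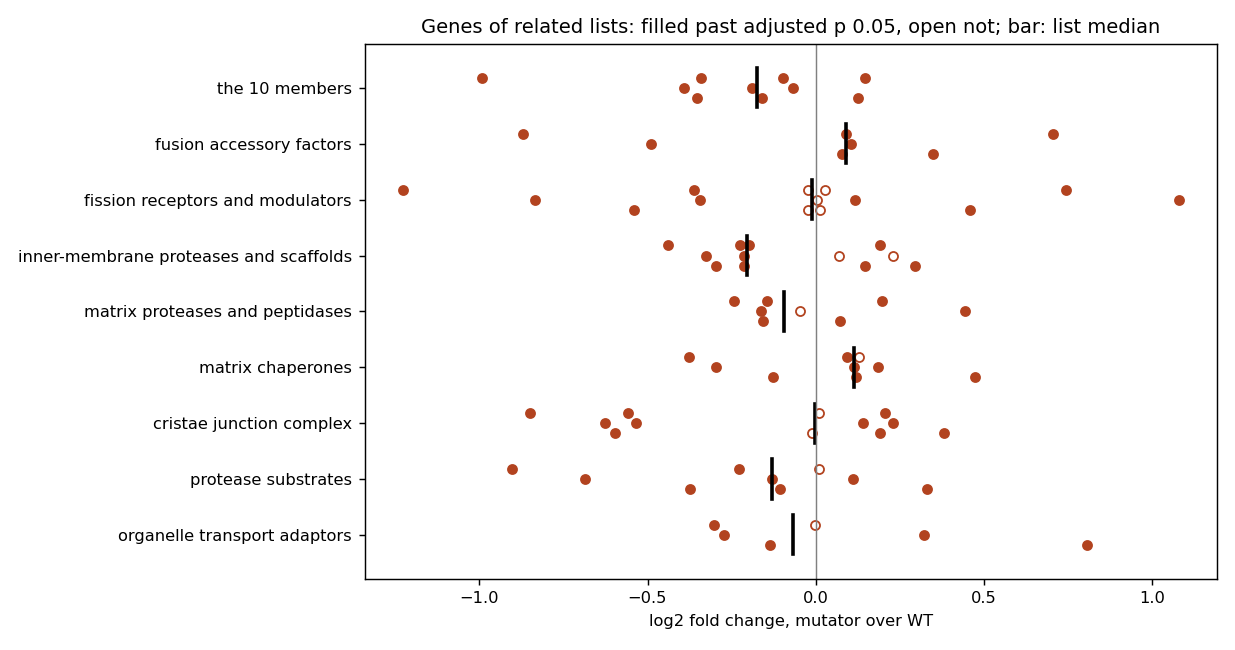
Log2 fold change, mutator over WT, of the 10 members and of 8 lists of related genes, filled where the edgeR adjusted p was under 0.05, open otherwise, with a bar at each list's median. The medians lie between -0.21 and 0.11, and each list holds genes on both sides of 0; the values are on the scale of all genes, and the directions of members and of listed genes can turn on the other scales, as those of Mfn2, Opa1, Yme1l1, Miga2 and Mtx1 do.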

How the data were processed

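The authors' deposited file holds raw counts per gene for poly(A)-selected, stranded libraries from 1 µg of RNA, read as 150 bp pairs. STAR 2.4.2a, HTSeq and the build mm10 are named in the submitters' processing notes. The HTSeq version, annotation, strand setting and handling of multi-mapped reads were not given in the sources used here. Columns were matched to samples by description, and 5 further columns were not used. Genes were kept by filterByExpr, normalised by TMM and compared in R 4.3.3 by the quasi-likelihood test of edgeR 4.0.16 with group as the single term, with Benjamini-Hochberg adjustment over all genes and a threshold of 0.05. The SE is the absolute log2 fold change over the square root of F. DESeq2 1.42.0 and limma 3.58.1 (voom) were alternatives. The fit was tested on simulated data.

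Chi-square per degree of freedom between replicates was 2.49 to 12.4 for genes of 20 counts or more, above sampling noise for each pair; all 9 libraries were kept. Chromosomes and positions are from RefSeq GRCm38.p6 (mm10), matched for 21736 rows, and promoters are from RefSeq. Exon lengths and GC content are from GENCODE M21, in place of the RefSeq exons planned; lengths for levels are merged exons of coding transcripts, chosen after retained introns were seen to lengthen some genes. Of tested genes 92.0% had both. Of 131 list entries, 130 were found, 18 under another symbol. Members and lists were chosen with earlier results of these data known. Beside the members, the text names Polg, partner genes chosen by function, and in each list the 3 genes of largest absolute change that passed and averaged 1 CPM or more. Afg3l1 and the neighbours of Mfn1 were chosen after their values were seen.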

Additional observations from a re-analysis of the deposited data

Results flagged for a closer look

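Of 52 sets of replicate values examined (the members, partner genes, Polg and ratios, in each line), 2 held a library far from the others, where chance gives about 1 in 20. Mfn1 in mutator replicate 5 was at 60.6 CPM, below the 63.4 to 64.0 CPM of the other mutator libraries. Opa1 in mutator replicate 4 was at 120.3 CPM, below the 126 to 129 CPM of the others. Without mutator replicate 5 the log2 fold change of Mfn1 was -0.98, against -0.99 with all libraries. That value is the upper end of the range over all libraries left out in turn (-1.02 to -0.98). Without mutator replicate 4 the log2 fold change of Opa1 was -0.050 and did not pass (edgeR adjusted p = 0.0923).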

How the results depend on the processing

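Under RLE size factors, DESeq2, limma-voom and the replicate block, all 10 members kept their direction and side of the threshold. Same-numbered wells did not deviate together (correlations of -0.101, 0.103, -0.0781 and 0.00376), so the numbers were not treated as pairs; with the replicate block Mfn1 was at -0.98 and 78.5% of genes passed. Opa1 and Fis1 did not pass under upper quartile scaling (-0.023 and -0.052), with no filter (-0.048 and -0.077) or with a filter of 10 CPM in 4 libraries (-0.042 and -0.070). Relative to chromosome medians, Mfn2 was at 0.0074 and Yme1l1 at -0.17, both reversed, Opa1 (-0.036) and Clpp (-0.082) did not pass, and 1 member was higher. With the GC and length trend removed, Opa1 was at 0.018 and Mff at -0.047 (0.016 and -0.039 with the replicate block as well). Mfn1 (-0.92) and Fis1 (-0.081) also came nearer to no change. The other members moved farther from it: Dnm1l (0.27), Yme1l1 (0.32), Lonp1 (-0.58), Mfn2 (-0.44), Clpp (-0.43) and Afg3l2 (-0.22). With both corrections, Opa1 was at 0.036, Yme1l1 at -0.027 and Mff at -0.035, and 1 member, Dnm1l, was higher (0.28). Afg3l2 (-0.33) and Lonp1 (-0.31) were then the lowest members, below Mfn1 (-0.19). Outside the members, reversals are listed for Polg, the partner genes and the genes named by size in each list, not for other list genes such as Miga2 or Afg3l1. Among those, values that reversed relative to chromosome medians were Metap1d (-0.12) and Mtx1 (0.14). With the GC and length trend removed they were Smcr7, the row of Mief2 (-0.18) and Polg (-0.042), also with the replicate block (-0.18 and -0.043). With both corrections they were Smcr7 (-0.23), Polg (-0.075), Mtfr1 (0.0088), Ghitm (0.040) and Metap1d (-0.063). The cause was not tested. Leaving out 1 library at a time gave 5281 to 5365 genes higher and 5100 to 5234 lower; Opa1 ranged from -0.094 to -0.050, Fis1 from -0.12 to -0.073, and 7 or 8 members were lower. The same gave log2 ratio differences of -0.67 to -0.62 for Mfn1/Mfn2, 0.27 to 0.31 for Opa1/Mfn2, 0.18 to 0.21 for Dnm1l/Opa1, 0.56 to 0.61 for Yme1l1/Oma1, -0.40 to -0.35 for Afg3l2/Spg7 and -0.33 to -0.24 for Clpp/Clpx. Without any 1 WT library their adjusted p was 0.0536, because the smallest exact p of 3 against 5 libraries is 0.0357; Fis1/Mff, Lonp1/Clpp and Mief1/Mief2 did not pass in any setting. Adding 0.5 counts changed no call of a ratio. Intervals cover the spread between wells only.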
